A study of Mus musculus with 10 samples.

Results

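The 10 genes described here are canonical transcriptional targets of YAP and TAZ: Ccn1 (also named Cyr61), Ccn2 (also named Ctgf), Ankrd1, Amotl1, Amotl2, Axl, Ajuba, Crim1, F3 and Ptpn14. They were chosen by name as known targets, with earlier results of these tumors known, and they make up 10 of the 17864 genes in the count table. RNA of whole mammary tumors was sequenced, 5 tumors grown from 4T1 cells with a control guide RNA (sgCon) and 5 from 4T1 cells that carried a guide RNA directed at Wwtr1, which encodes TAZ (sgTaz). 4T1 is a mammary carcinoma line of BALB/c mice that serves as a model of triple-negative breast cancer. In the methods, female BALB/c or SCID mice, 6 to 8 weeks old, received 100000 cells in a mammary fat pad. The methods of the RNA sequencing do not name the host strain of the sequenced tumors. Both groups of cells had gone through the CRISPR-Cas9 procedure. Whether the edited cells were 1 clone or a pool was not stated in the sources used here, and the host's own cells in the tumor were not edited. Each tumor was read as 1 sample, and p-values measure the spread between these tumors.

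YAP and TAZ are related transcriptional co-activators at the end of the Hippo pathway. When the Hippo kinases MST and LATS are active, YAP and TAZ are phosphorylated and held in the cytoplasm or degraded. When the kinases are inactive, YAP and TAZ enter the nucleus and act through the DNA-binding TEAD proteins, which bind sites with the core letters GGAATG, on many genes often together with AP-1 factors. YAP and TAZ share most of their targets, which are known to include secreted matrix proteins, cell-surface receptors and several proteins that restrain YAP and TAZ.

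The TEAD core letters were looked for in the 250 bases before the start of each gene, since these genes share their assignment to YAP, TAZ and TEAD. Promoter sequence was taken from RefSeq on the build GRCm38.p6, in which 9 of the 10 genes had an entry, all except Ccn2. The letters searched were GGAATG and, for the other strand, CATTCC. They were found in 7 of the 9 promoters, Ccn1, Ankrd1, Amotl2, Axl, Ajuba, Crim1 and Ptpn14, and in 12.6% of all 32851 promoters of the same length. Ankrd1 and Ajuba each held 2 matches. The 30 bases around each match are given below on the strand of the gene, 5′ to 3′, with the TEAD letters in capitals. The matches share the core because it was the search term, and their flanks differ.
Ccn1 (chr3:145650071-145650100, minus strand): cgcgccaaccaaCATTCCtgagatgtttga
Ankrd1, far match (chr19:36120037-36120066, minus strand): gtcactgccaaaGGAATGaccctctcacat
Ankrd1, near match (chr19:36119950-36119979, minus strand): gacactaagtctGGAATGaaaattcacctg
Amotl2 (chr9:102717727-102717756, plus strand): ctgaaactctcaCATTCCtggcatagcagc
Axl (chr7:25788949-25788978, minus strand): ggaaattctacaGGAATGtttaccagaccc
Ajuba, far match (chr14:54577830-54577859, minus strand): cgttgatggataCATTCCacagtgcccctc
Ajuba, near match (chr14:54577808-54577837, minus strand): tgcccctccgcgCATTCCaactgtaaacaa
Crim1 (chr17:78200157-78200186, plus strand): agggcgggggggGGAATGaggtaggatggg
Ptpn14 (chr1:189728110-189728139, plus strand): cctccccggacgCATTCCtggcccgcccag
The first TEAD letter lay 65 bases before the start in Amotl2, 79 in Crim1, 103 in Ccn1, 146 in Ptpn14 and 233 in Axl. In Ankrd1 it lay 210 and 123 bases before the start, and in Ajuba 186 and 164. Both Ankrd1 matches lie inside the first exon of a longer transcript in the GENCODE annotation, and the start used here is that of RefSeq. The GENCODE span of Amotl2 (plus strand) begins at chr9:102716672, and that of Amotl1 (minus strand) reaches to chr9:14645056. The windows of these genes therefore lie inside their GENCODE spans. The AP-1 letters TGACTCA or TGAGTCA, searched on both strands, were found in F3 at 135 bases before the start and in 4.46% of all promoters. Amotl1 held neither motif in this window. A match is a description of letters and not a measured site, and neither TEAD binding nor chromatin was measured here.

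Total counts per tumor lay between 14753922 and 19595821 in the sgCon group and between 12185383 and 18395558 in the sgTaz group, so that 3 counts were at most 2.46e-05% of a tumor's counts. Values are given as CPM (counts scaled by TMM to a common library total), as mean ± SD with n = 5 tumors per group. Differences are log2 fold changes of sgTaz over sgCon with their standard errors (SE), and adjusted p-values are Benjamini-Hochberg values over all 14816 genes that passed the filter on low counts, with 0.05 as the threshold. All 10 target genes passed this filter, and the lowest count of any of them in any tumor was 122, for F3. All 10 epithelial markers, among them Epcam, Cdh1, Krt8 and Krt18, were detected in every tumor.

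Wwtr1, the gene of TAZ (ENSMUSG00000027803.14, chr3:57455649-57575910, minus strand), was measured first as a check of the labels. Its level was 192, 181, 115, 171 and 156 CPM in sgCon tumors 1 to 5 and 86.6, 104, 109.9, 139 and 102 CPM in sgTaz tumors 1 to 5. All sgTaz tumors lay below the sgCon mean, and the groups overlapped by sgCon tumor 3 and sgTaz tumor 4. The mean was 163 ± 30.2 CPM in sgCon and 108 ± 19.2 CPM in sgTaz tumors, a log2 fold change of -0.59 (SE 0.15) with an adjusted p of 0.0960 by edgeR's quasi-likelihood test. DESeq2 gave an adjusted p of 0.0149 and limma-voom of 0.0280, and the range over all alternatives was 0.0149 to 0.233. Cas9 cuts DNA, so that RNA of an edited gene can still be made and counted. How much of the Wwtr1 RNA came from host cells was not measured.

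Yap1, which encodes YAP, the paralog of TAZ, was at 162, 155, 121, 189.7 and 148 CPM in sgCon tumors and at 210.4, 216, 185, 165 and 176 CPM in sgTaz tumors. All 5 sgTaz tumors lay above the sgCon mean of 155 ± 24.8 CPM, and the sgTaz mean was 190.4 ± 22.03 CPM. The log2 fold change was 0.30 (SE 0.12), with an adjusted p of 0.184 by edgeR that lay between 0.0957 and 0.398 over the alternatives. Yap1 shares 116 exon bases with Gm20416 on the opposite strand. The strand setting of the counting was not given in the sources used here, so that reads of such overlapping genes cannot be told apart.

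The target genes did not move as a group in 1 direction. Relative to sgCon tumors, the log2 fold change was above 0 for 7 of them and below 0 for 3, with a median of 0.26 beside -0.02 over all genes tested. With edgeR's quasi-likelihood test, 0 of the 10 passed an adjusted p of 0.05, as did 1 of all 14816 genes tested (0.00675%), Tmx4, which is named here after its value was seen. At an unadjusted p below 0.05 there were 5 of the 10, beside 21.8% of all genes. Of these, Axl, Ptpn14, Crim1 and Ajuba were higher in sgTaz tumors, beside 9.86% of all genes higher at that line, and Ankrd1 was lower, beside 11.9% of all genes lower. DESeq2 called 1 of the 10, Axl, and 6.87% of the genes it tested, 3.38% as higher and 3.5% as lower. Limma-voom with sample weights called Axl as higher and Ankrd1 as lower, 2 of the 10, and 10.4% of all genes, 4.63% as higher and 5.8% as lower. The 5 sgTaz values lay wholly outside the sgCon values for 1 of the 10, Axl, beside 4.57% of all genes, 2.44% higher and 2.13% lower.

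**Figure D1:**
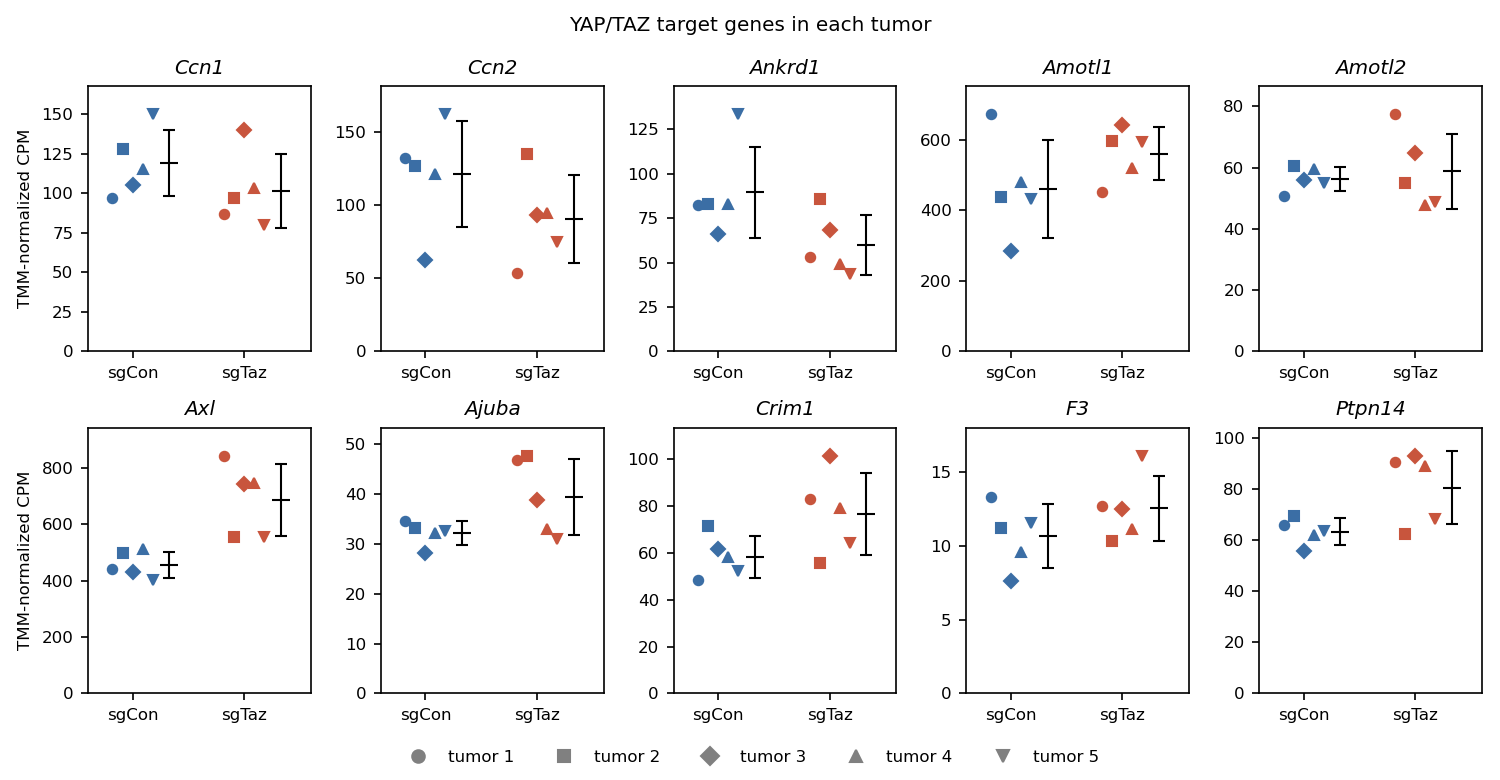
Each panel plots 1 target gene, with the TMM-scaled CPM on the vertical axis and the 5 sgCon and 5 sgTaz tumors as points, and the mean and SD of each group beside them. The groups are separate for Axl, where the sgTaz tumors sit between 553 and 840.0 CPM and the sgCon tumors between 401 and 512 CPM, and overlap in the other 9 panels.

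The 3 genes whose means were lower in sgTaz tumors were Ccn1, Ccn2 and Ankrd1, the targets most often used as readouts of YAP and TAZ. Ccn1 and Ccn2 encode secreted matrix-associated proteins of the CCN family that bind integrins, and Ankrd1 encodes an ankyrin repeat protein of the nucleus and of the muscle sarcomere. In each of them the sgTaz mean was between 0.670 and 0.853 of the sgCon mean, and the lowest value of all 10 tumors was that of an sgTaz tumor.

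Ankrd1 (ENSMUSG00000024803.9, chr19:36111961-36120099, minus strand), whose promoter matches are printed above, was at 82.3, 82.7, 66.1, 83.2 and 133 CPM in sgCon tumors 1 to 5. In sgTaz tumors 1 to 5 it was at 53.1, 85.6, 68.4, 49.0 and 43.7 CPM. All 5 sgTaz tumors lay below the sgCon mean and 3 of them below every sgCon tumor, while sgTaz tumor 2 was above 4 of the 5 sgCon tumors. The mean was 89.5 ± 25.6 CPM in sgCon and 59.9 ± 17.0 CPM in sgTaz tumors, a ratio of 0.670. The log2 fold change was -0.58 (SE 0.21, 95% interval -1.05 to -0.11), with an adjusted p of 0.163 by edgeR. Limma-voom gave an adjusted p of 0.0477, DESeq2 gave 0.0954, and the range over all alternatives was 0.0477 to 0.362. The difference leaned on single tumors, since the log2 fold change was -0.39 without sgCon tumor 5, the highest of all, and -0.74 without sgTaz tumor 2.

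Ccn2 (ENSMUSG00000019997.11, chr10:24595442-24598683, plus strand) was at 132, 127, 62.7, 121 and 162 CPM in sgCon tumors and at 53.5, 135, 93.0, 94.5 and 74.7 CPM in sgTaz tumors. Of the sgTaz tumors 4 lay below the sgCon mean, and sgTaz tumor 2 was above 4 of the 5 sgCon values. At the other side, sgCon tumor 3 was below 4 of the 5 sgTaz values. The mean was 121 ± 36.1 CPM in sgCon and 90.1 ± 30.1 CPM in sgTaz tumors. The log2 fold change of -0.42 (SE 0.26, 95% interval -0.999 to 0.15) had an adjusted p of 0.365 by edgeR and of 0.0886 to 0.611 over the alternatives. As each tumor was left out in turn, it lay between -0.61 without sgTaz tumor 2 and -0.28 without sgTaz tumor 1. Ccn2 shares 665 exon bases with Gm15270 on the opposite strand, which had 5 to 29 counts per tumor against 840 to 2533 for Ccn2.

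Ccn1 (ENSMUSG00000028195.4, chr3:145646976-145649981, minus strand) was at 97.1, 128, 105, 115 and 149.7 CPM in sgCon tumors and at 87.1, 97.0, 139.9, 104 and 80.0 CPM in sgTaz tumors. Here sgTaz tumor 3 was the exception, above 4 of the 5 sgCon tumors, and 3 of the sgTaz tumors lay below every sgCon tumor. The mean of 119 ± 20.6 CPM in sgCon tumors compared with 101 ± 23.3 CPM in sgTaz tumors, a log2 fold change of -0.23 (SE 0.16, 95% interval -0.58 to 0.12). Its adjusted p was 0.413 by edgeR and lay between 0.259 and 0.754 over the alternatives. Without sgTaz tumor 3 the log2 fold change was -0.37, and without sgCon tumor 5 it was -0.13.

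Marker levels of other cells are given beside these genes. The summed level of the 10 epithelial markers was 2141 to 5143 CPM in sgCon and 1638 to 4001 CPM in sgTaz tumors, with 10 of 10 markers lower in sgTaz tumors, 4 of them at an unadjusted p below 0.05 by edgeR (11.9% of all genes were lower at that line). EdgeR called 0 of them, DESeq2 1 (3.5% of all genes) and limma-voom 2 (5.8%). Among sgTaz tumors, tumor 2 had the highest epithelial sum, 4001 CPM against 1638 to 2226 CPM in the others, and also the highest Ankrd1 and Ccn2. Ccn1 was highest in sgTaz tumor 3. Within the sgCon group, tumor 1 had the highest epithelial sum, 5143 CPM, and the lowest Ccn1. The highest Ccn1, Ccn2 and Ankrd1 of that group were in tumor 5, with an epithelial sum of 3351 CPM. For skeletal muscle, which makes Ankrd1, the summed level of 10 markers was 31.1 to 63.6 CPM in sgCon and 14.1 to 70.3 CPM in sgTaz tumors, and 7 of the 10 did not pass the filter of edgeR. Of the 3 that did, 1 was higher and 2 lower, edgeR called 0 with 0 at an unadjusted p below 0.05, and limma-voom called 1 as lower. DESeq2, run on all 10, called 3 as lower, beside 3.5% of the genes it tested, and 0 as higher. The adult fast myosins Myh2 and Myh4 and the troponin Tnnc2 were at 0 counts in all 5 sgTaz tumors. The troponins Tnni2 and Tnnt3 made up 97.5% of the sum in sgTaz tumor 2, the highest sum of all, and the other 8 markers together were at 1.29 to 1.74 CPM in all sgTaz tumors. In sgCon tumors these other 8 were at 1.44 to 37.6 CPM, highest in tumor 3, the lowest sgCon tumor for Ankrd1. The part of epithelial or muscle cells in these differences was not tested. In RNA of whole tumors, fewer cells of a type and less RNA per cell cannot be told apart.

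**Figure D2:**
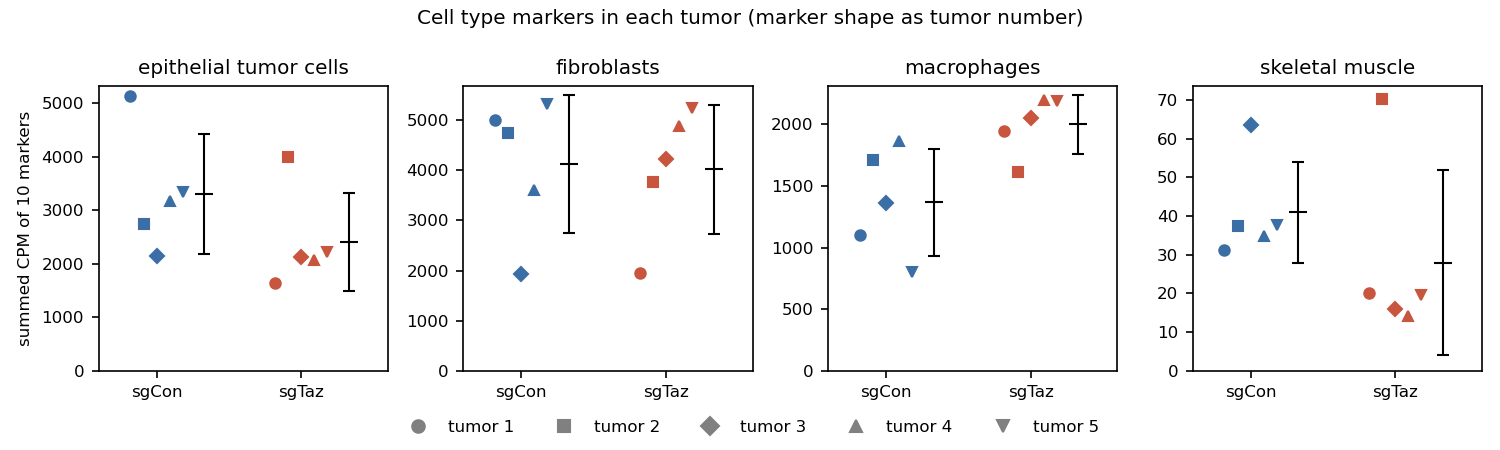
The summed CPM of 10 marker genes each of epithelial tumor cells, fibroblasts, macrophages and skeletal muscle is plotted for each of the 10 tumors, with the mean and SD of the sgCon and the sgTaz group beside the points and the tumor number as the marker shape. The epithelial sum is highest in sgCon tumor 1 at 5143 CPM, and sgTaz tumor 2 stands above the other sgTaz tumors at 4001 CPM.

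Among the cell-surface targets, Axl was higher in sgTaz tumors, and Crim1 and F3 had higher means. Axl encodes a receptor tyrosine kinase whose ligand is Gas6, a bridge to phosphatidylserine on dying cells, and the receptor is known from invasive carcinoma cells as well as from macrophages and fibroblasts. Crim1 encodes a transmembrane protein with cysteine-rich repeats that binds BMPs, and F3 encodes tissue factor, the receptor that starts blood clotting.

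Axl (ENSMUSG00000002602.16, chr7:25757273-25788705, minus strand) was at 441, 497, 429, 512 and 401 CPM in sgCon tumors 1 to 5. In sgTaz tumors 1 to 5 it was at 840.0, 555, 741, 747 and 553 CPM. Every sgTaz tumor lay above every sgCon tumor, with sgTaz tumors 2 and 5 nearest to the sgCon group. The mean was 456 ± 46.9 CPM in sgCon and 687 ± 128 CPM in sgTaz tumors. DESeq2 gave an adjusted p of 0.00256 at a log2 fold change of 0.61. Limma-voom gave an adjusted p of 0.0229 at the same log2 fold change. By edgeR's quasi-likelihood test the ratio was 1.51 and the log2 fold change 0.59 (SE 0.13, 95% interval 0.31 to 0.87), with an adjusted p of 0.0896, above the threshold. The adjusted p lay between 0.00256 and 0.233 over the alternatives, and the log2 fold change between 0.51 and 0.66 as each tumor was left out in turn.

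Macrophage and fibroblast marker levels are given beside Axl. Summed over 10 macrophage markers, the level was 801 to 1867 CPM in sgCon and 1612 to 2194 CPM in sgTaz tumors, with 10 of 10 markers higher in sgTaz tumors, 5 of them at an unadjusted p below 0.05 by edgeR (9.86% of all genes were higher at that line). EdgeR called 0 of them, DESeq2 3 (3.38% of all genes) and limma-voom 4 (4.63%). No macrophage marker was at 0 in any tumor. Within the sgCon group, tumor 4 had the highest Axl and the highest macrophage sum, and tumor 5 the lowest of both. Within the sgTaz group, tumor 5 had the lowest Axl and a macrophage sum of 2189 CPM, close to the highest of all. Of 10 fibroblast markers, 6 had higher and 4 lower means in sgTaz tumors. Their summed level was 1941 to 5314 CPM in sgCon and 1949 to 5249 CPM in sgTaz tumors. The part of macrophages or fibroblasts in the Axl difference was not tested.

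Crim1 (ENSMUSG00000024074.8, chr17:78200248-78376592, plus strand) was at 48.5, 71.5, 61.9, 58.3 and 52.1 CPM in sgCon tumors and at 82.9, 55.7, 101, 79.4 and 64.5 CPM in sgTaz tumors. Of the sgTaz tumors, 3 lay above every sgCon tumor and tumor 2 lay below the sgCon mean. The mean was 58.5 ± 8.98 CPM in sgCon and 76.7 ± 17.6 CPM in sgTaz tumors, with a log2 fold change of 0.39 (SE 0.16, 95% interval 0.04 to 0.74). Its adjusted p was 0.190 by edgeR and 0.0857 to 0.384 over the alternatives. Crim1 shares 123 exon bases with Fez2 on the opposite strand, a gene with 586 to 1000 counts per tumor and a log2 fold change of 0.11 (adjusted p 0.551 by edgeR).

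F3 (ENSMUSG00000028128.13, chr3:121723537-121735048, plus strand) was the lowest of the 10 genes, at 13.3, 11.2, 7.61, 9.60 and 11.6 CPM in sgCon tumors and 12.7, 10.3, 12.5, 11.2 and 16.1 CPM in sgTaz tumors. Only sgTaz tumor 5 lay above every sgCon tumor, and sgCon tumor 1 was above 4 of the 5 sgTaz tumors. With means of 10.7 ± 2.16 and 12.6 ± 2.20 CPM, the log2 fold change was 0.24 (SE 0.17, 95% interval -0.14 to 0.61). The adjusted p was 0.437 by edgeR and 0.281 to 0.695 over the alternatives, and the log2 fold change was 0.13 without sgTaz tumor 5 and 0.14 without sgCon tumor 3.

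**Figure D3:**
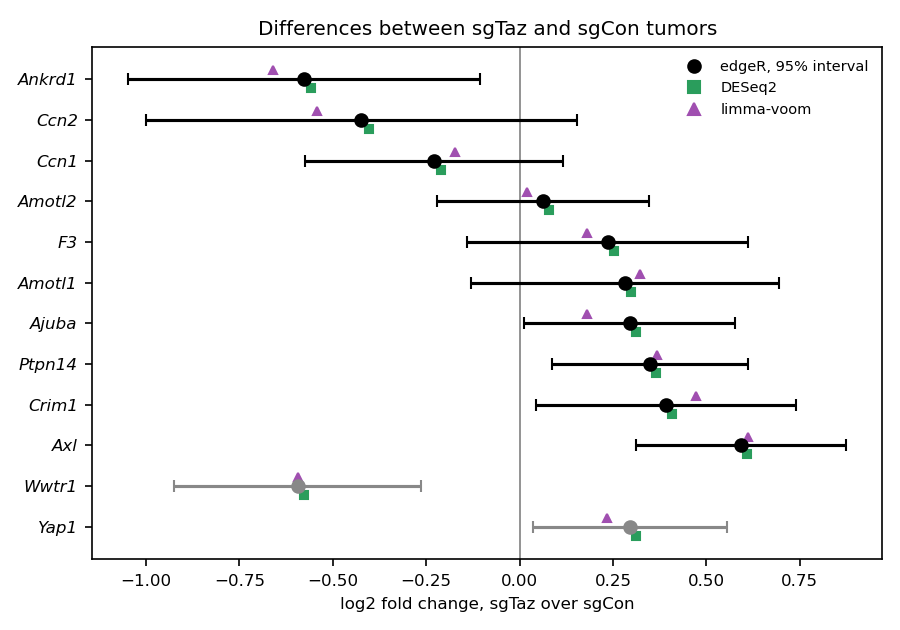
The log2 fold change of sgTaz over sgCon is plotted for each target gene and for Wwtr1 and Yap1, with 95% intervals from the edgeR fit and the DESeq2 and limma-voom estimates beside them. Among the targets, the interval, which is not adjusted for the number of genes, lies above 0 for Axl, Crim1, Ptpn14 and Ajuba and below 0 for Ankrd1.

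The other 4 targets encode proteins that act back on the Hippo pathway. Amotl1 and Amotl2 encode angiomotin-like proteins of cell junctions that bind YAP and TAZ and can hold them in the cytoplasm. Ptpn14 encodes a protein tyrosine phosphatase that also binds YAP and restrains it, and Ajuba encodes a LIM-domain protein of junctions that inhibits the LATS kinases. All 4 had higher means in sgTaz tumors, by ratios of 1.04 to 1.27.

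Ptpn14 (ENSMUSG00000026604.17, chr1:189728268-189876695, plus strand) was at 66.0, 69.8, 55.8, 62.1 and 63.5 CPM in sgCon tumors and at 90.9, 62.6, 93.0, 89.0 and 68.2 CPM in sgTaz tumors. Tumors 1, 3 and 4 of the sgTaz group lay above every sgCon tumor, and tumors 2 and 5 lay among the sgCon values. The mean was 63.4 ± 5.18 CPM in sgCon and 80.7 ± 14.2 CPM in sgTaz tumors, with a log2 fold change of 0.35 (SE 0.12, 95% interval 0.09 to 0.61). Its adjusted p by edgeR was 0.143, and 0.0562 to 0.305 over the alternatives, all of which left it above the threshold. Ptpn14 shares 177 exon bases with Gm26574 on the opposite strand.

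Ajuba (ENSMUSG00000022178.11, chr14:54567472-54577558, minus strand) was at 34.6, 33.1, 28.2, 32.3 and 32.6 CPM in sgCon tumors and at 46.8, 47.6, 38.8, 32.9 and 31.0 CPM in sgTaz tumors. Again 3 sgTaz tumors lay above every sgCon tumor, but here tumor 2 was the highest and tumor 5 the lowest of the group. The sgCon tumors were close together at 32.2 ± 2.39 CPM, and the sgTaz mean was 39.4 ± 7.65 CPM. The log2 fold change of 0.29 (SE 0.13, 95% interval 0.01 to 0.58) had an adjusted p of 0.211 by edgeR and 0.133 to 0.361 over the alternatives.

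Amotl1 (ENSMUSG00000013076.17, chr9:14541966-14645056, minus strand) was at 671, 437, 285, 480.3 and 433 CPM in sgCon tumors and at 451, 596, 642, 521 and 592 CPM in sgTaz tumors. Of the sgTaz tumors 4 lay above the sgCon mean, but the highest value of all was that of sgCon tumor 1. The mean was 461 ± 139 CPM in sgCon and 560.5 ± 74.9 CPM in sgTaz tumors. The log2 fold change of 0.28 (SE 0.19, 95% interval -0.13 to 0.69) had an adjusted p of 0.399 by edgeR and 0.134 to 0.599 over the alternatives, and it was 0.46 without sgCon tumor 1 and 0.16 without sgCon tumor 3.

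Amotl2 (ENSMUSG00000032531.15, chr9:102716672-102733418, plus strand) was at 50.7, 60.5, 55.9, 59.4 and 54.9 CPM in sgCon tumors and at 77.3, 55.0, 64.7, 47.8 and 48.8 CPM in sgTaz tumors. The sgTaz tumors spread to both sides, 2 above and 2 below every sgCon tumor. The means were 56.3 ± 3.87 and 58.7 ± 12.4 CPM, and the log2 fold change was 0.06 (SE 0.13, 95% interval -0.22 to 0.35). Its adjusted p was 0.808 by edgeR, between 0.630 and 0.945 over the alternatives, and without sgTaz tumor 1 the log2 fold change was -0.06.

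Levels were compared between genes per length, as CPM per kilobase of annotated exon, over all 10 tumors. Axl had the highest level at 114 ± 30.2 CPM per kilobase. Ccn1 at 54.6 ± 11.2 and Amotl1 at 50.8 ± 11.7 CPM per kilobase came next and were closer to each other than their SDs. Ccn2 at 36.9 ± 12.3 and Ankrd1 at 25.9 ± 8.92 CPM per kilobase differed by less than the SD of Ccn2 and by more than that of Ankrd1. Crim1 at 11.3 ± 2.72, Ajuba at 9.82 ± 1.80 and Amotl2 at 9.14 ± 1.39 CPM per kilobase were neighbours that also differed by less than their SDs, followed by Ptpn14 at 5.37 ± 1.01 and F3 at 4.60 ± 0.904 CPM per kilobase, again within their SDs. The gaps between Axl and Ccn1, between Amotl1 and Ccn2, between Ankrd1 and Crim1 and between Amotl2 and Ptpn14 were larger than the SDs of both neighbours.

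**Figure D4:**
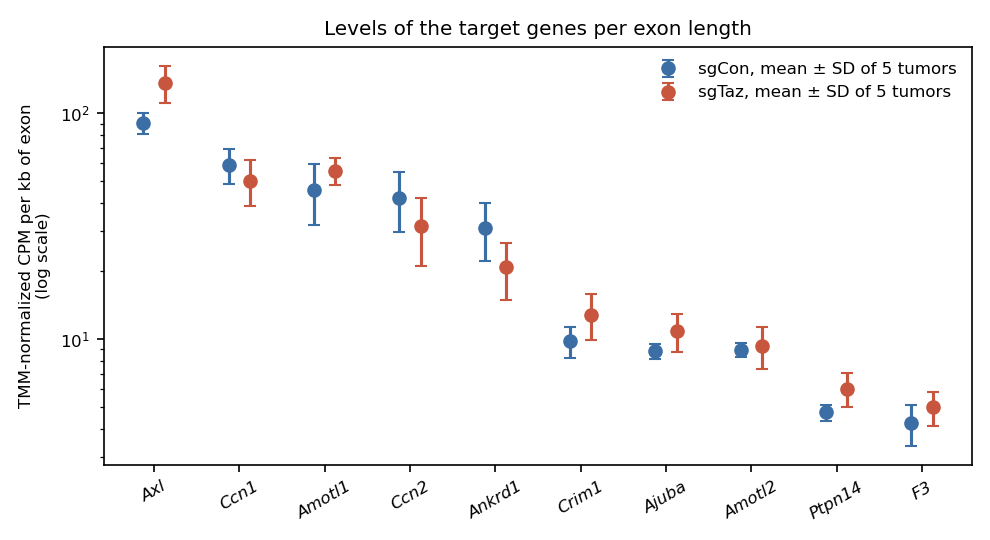
The level of each target gene is plotted as CPM per kilobase of exon on a log axis, with the mean and SD of the 5 sgCon and of the 5 sgTaz tumors as separate points with bars. Axl has a mean of 114 CPM per kilobase over all tumors and F3 of 4.60, and the genes are ordered by this mean from left to right.

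Single tumors were high or low for several target genes at a time. In the sgCon group, tumor 3 was the lowest for 6 of the 10 genes, Ccn2, Ankrd1, Amotl1, Ajuba, F3 and Ptpn14, and the highest for 0. It was also the lowest sgCon tumor for Wwtr1 and Yap1 and had the lowest epithelial sum of that group, 2141 CPM, and the lowest fibroblast sum, 1941 CPM against 3597 to 5314 CPM in the other 4. Tumor 5 of the sgCon group was the highest for Ccn1, Ccn2 and Ankrd1 and the lowest for Axl. In the sgTaz group, tumor 3 was the highest for Ccn1, Amotl1, Crim1 and Ptpn14, and tumor 2 was the highest for Ccn2, Ankrd1 and Ajuba and the lowest for Crim1, F3 and Ptpn14. Tumor 5 of the sgTaz group was the lowest for Ccn1, Ankrd1, Axl and Ajuba and the highest for F3.

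**Figure D5:**
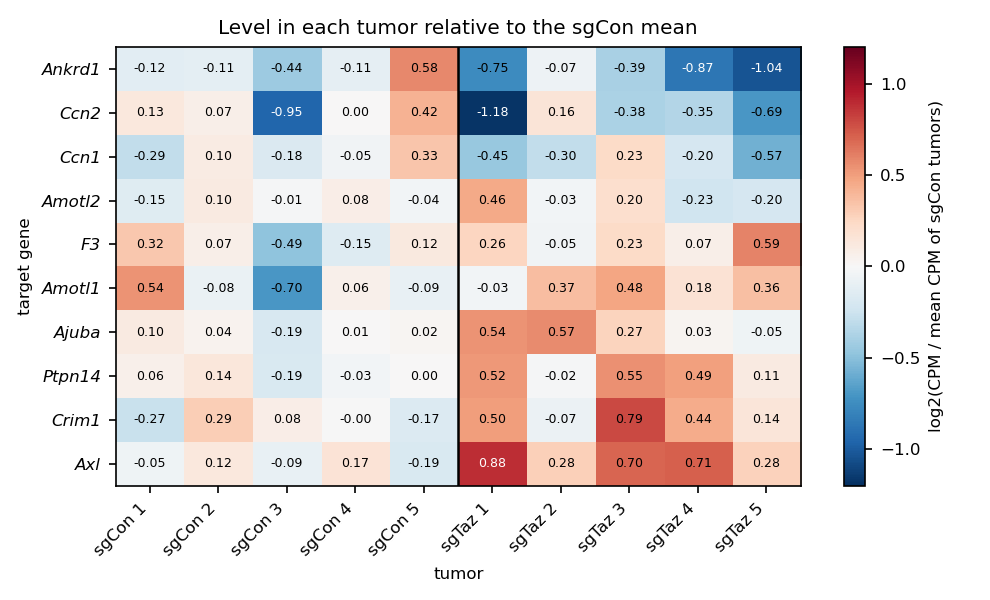
A heat map shows, for each target gene and each of the 10 tumors, the log2 of the CPM divided by the mean CPM of the 5 sgCon tumors. Axl is above 0 in all 5 sgTaz tumors and in 2 of the sgCon tumors, Ankrd1 is below 0 in all 5 sgTaz tumors and in 4 of the 5 sgCon tumors, and sgCon tumor 3 is below 0 for all genes except Crim1.

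Over the 10 tumors, the levels of Axl, Ptpn14 and Crim1 followed each other. Pearson's r of log2 CPM was 0.899 for Axl and Ptpn14, 0.839 for Crim1 and Ptpn14 and 0.829 for Axl and Crim1, and 0.826, 0.738 and 0.744 with the group means removed. Ccn2 and Ankrd1 had an r of 0.788, or 0.744 with the group means removed, and Ccn1 and Ankrd1 of 0.708 or 0.622. Ccn1 and Ccn2 were less alike, with an r of 0.551 and of 0.449 with the group means removed. Ankrd1 and Axl had an r of -0.65, which was -0.27 with the group means removed. These values describe 10 tumors that differ in library depth and cell content, and no test was made.

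The genes most like each target among all 14816 tested were taken by the same r over the 10 tumors. For Axl they were Ddr2, a collagen receptor tyrosine kinase, with an r of 0.983, and Dock4, with 0.979. For Ptpn14 they were Ston1 (0.969) and Myo10 (0.967), for Crim1 Ece1 (0.951) and Gprin3 (0.947), and for Amotl1 Smad3 (0.968), a signal transducer of TGF-β, and Zfp81 (0.960). For Ccn2 they were Apool (0.961) and Loxl2 (0.959), a collagen cross-linking enzyme, and for Ankrd1 Utp11 (0.933) and Col7a1 (0.929), a collagen of anchoring fibrils. The remaining ones were Aida (0.955) for Ajuba, Cstf1 (0.920) and Spsb1 (0.915) for Amotl2, and Acaca (0.912) and Man1a2 (0.909) for F3. Ccn1 had the weakest likeness, with Pex14 (0.832) and Ankrd66 (0.813). With the group means removed, r for these pairs lay between 0.763 and 0.962. These are the highest of many correlations over few tumors, given as a description.

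Of the targets described here, 8 belong to a published signature of YAP and TAZ target genes in cancer, all except Amotl1 and Ajuba. Its other 14 genes were taken as a list, of which 13 were in the table and passed the filter. Of these, 9 had higher and 4 lower means in sgTaz tumors, with a median log2 fold change of 0.02, and edgeR called 0. At an unadjusted p below 0.05 by edgeR there was 1, beside 21.8% of all genes. DESeq2 called 1, beside 6.87% of the genes it tested, and limma-voom called the same 1, beside 10.4% of all genes. That gene was Asap1, an ARF GTPase-activating protein of focal adhesions, at 185 ± 23.2 CPM in sgCon and 255 ± 50.6 CPM in sgTaz tumors. DESeq2 gave it an adjusted p of 0.0352. By edgeR its log2 fold change was 0.46 (SE 0.14) with an adjusted p of 0.114. The adjusted p was 0.0352 to 0.263 over the alternatives. The next by p with higher means were Rbms3, an RNA-binding protein, with a log2 fold change of 0.13 (8.53 ± 1.34 against 9.31 ± 2.17 CPM), and Fjx1 with 0.17 (1.996 ± 0.358 against 2.25 ± 0.736 CPM). Those with lower means were the kinases Lats2 at -0.12 (33.8 ± 5.37 against 31.0 ± 5.22 CPM) and Nuak2 at -0.04 (42.9 ± 3.74 against 41.7 ± 7.58 CPM) and the growth factor Tgfb2 at -0.09 (6.63 ± 2.09 against 6.22 ± 1.82 CPM). The adjusted p of these 5 was 0.635 to 0.867 by edgeR.

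Upstream of the targets, 7 genes of YAP, TAZ and their DNA-binding partners and 8 of the Hippo kinase core were listed, and all passed the filter. Of the first list 5 had higher and 2 lower means in sgTaz tumors, 3 of them at an unadjusted p below 0.05, beside 21.8% of all genes, Wwtr1 lower and Yap1 and Tead1 higher. Tead1, named after its value was seen, encodes a TEAD DNA-binding protein. It was at 150.1 ± 24.0 CPM in sgCon and 211 ± 25.4 CPM in sgTaz tumors. DESeq2 gave it an adjusted p of 0.00848, and edgeR a log2 fold change of 0.49 with an adjusted p of 0.0960. Of the kinase core 6 had higher and 2 lower means. Here 3 were higher at an unadjusted p below 0.05, beside 9.86% of all genes, named after their values were seen, the kinase Stk3 with a log2 fold change of 0.28, its scaffold Sav1 with 0.21 and the LATS co-activator Mob1b with 0.23. None of the 8 was called by edgeR, DESeq2 or limma-voom.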

How the data were processed

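Counts per gene in 10 tumors were analysed. The authors mapped reads to mm10 (GRCm38) with STAR and GENCODE annotation, counted them per gene with featureCounts and deposited these raw counts without normalization. The strand setting, tool versions and rule for entering genes were not given in the sources used here. The table's 5 other columns of values were not used. Identifiers were matched to GENCODE M21 (17860 of 17864), which gave names, positions, exon lengths and GC content. Promoters came from RefSeq.

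Differences were tested in R 4.3.3 with edgeR 4.0.16 (TMM, filterByExpr by group, glmQLFit, glmQLFTest), and p-values were adjusted by Benjamini-Hochberg over 14816 genes, while 3048 were below the filter. DESeq2 1.42.0, which the methods name, and limma-voom with sample quality weights (limma 3.58.1) were alternatives. Others were RLE and upper-quartile scaling, no filter, at least 10 counts in every tumor, leaving out each tumor, the replicate number as a block, and a correction for GC content and exon length without and with the block, 19 in all. Log2 CPM used a prior count of 2. Python 3.11.15 with numpy 2.4.6, pandas 2.3.3 and matplotlib 3.10.9 was used for summaries and figures.

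The target genes and gene lists were chosen with earlier results of these data known. Named were the 10 targets, Wwtr1, Yap1, the 3 other signature genes of lowest p in each direction, and the 2 genes most like each target, except 1 gene that is not reported here. Lists were made by hand for the signature, the TEAD partners, the Hippo kinase core, and markers of epithelial cells, fibroblasts, pericytes and smooth muscle, endothelial cells, macrophages, skeletal muscle, B cells and lymph node stroma. The scripts were tested on simulated data. All pairs of replicates differed by more than sampling noise. The labels number the tumors of each group 1 to 5, and the numbers are not said to mark a shared batch or litter. A floor of 3 counts was 1.53e-05% to 2.46e-05% of a tumor's counts, for counting error only.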

Additional observations from a re-analysis of the deposited data

Results flagged for a closer look

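Of 52 groups of 5 tumors checked (the targets, the named pathway genes and the summed marker lists in each group), 9 held a tumor whose gap to the nearest other was large beside the range of the group by Dixon's 95% criterion, where chance gives about 2.6. Ankrd1 was at 133 CPM in sgCon tumor 5 against 66.1 to 83.2 CPM in the other sgCon tumors, and without this tumor its log2 fold change was -0.39. Lats2 was at 40.1 CPM in sgTaz tumor 1 against 27.6 to 30.9 CPM. In sgTaz tumor 2 the epithelial sum was 4001 CPM against 1638 to 2226 CPM and the skeletal muscle sum 70.3 CPM against 14.1 to 20.1 CPM, of which Tnni2 and Tnnt3 made up 97.5%. In sgCon tumor 3 the pericyte and smooth muscle sum was 355 CPM against 563 to 602 CPM, the skeletal muscle sum 63.6 CPM against 31.1 to 37.7 CPM (40.8% from Tnni2 and Tnnt3) and the lymph node stroma sum 699.9 CPM against 35.2 to 227 CPM. In sgTaz tumor 5 the B cell sum was 181 CPM against 8.01 to 23.0 CPM and the lymph node stroma sum 349.8 CPM against 1.55 to 7.45 CPM. The part of these tumors' cell content in the target genes' values was not tested.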

How the results depend on the processing

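The number of genes called depended on the tool, from 1 by edgeR to 1081 by DESeq2 and 1546 by limma-voom. It was 5 with at least 10 counts in every tumor, and 0 without a filter (3610 at an unadjusted p below 0.05), with the replicate block (2462), with the GC content and length correction (3044) and with both (2643). As each tumor was left out it ranged from 0 to 172, with 172 without sgTaz tumor 5 and 75 without sgTaz tumor 2. Among genes at an unadjusted p below 0.05, 1461 were higher and 1765 lower (45.3% higher), against 61.7% higher with the correction and 63.8% with the correction and the block. The median over all genes stayed between -0.03 and 0.04.

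Target genes at an unadjusted p below 0.05 numbered 5 in the edgeR fit, 3 with the replicate block, and 2 to 5 as each tumor was left out, with 2 without sgCon tumor 5 and 3 without sgTaz tumor 1 or 4. Ankrd1 was not among them without sgCon tumor 5, without sgTaz tumor 4 or with the GC content and length correction, alone or with the block (-0.48 in both). With the correction alone, the log2 fold change was -0.11 for Ccn1 and -0.33 for Ccn2, against -0.23 and -0.42 without it. All targets with higher means in sgTaz tumors had larger log2 fold changes with it. The median over all genes moved in the same direction, from -0.02 to 0.04. Of 190 values of the 10 targets under alternatives, 185 kept their direction and side of the threshold, 4 passed it and 1 turned. Those that passed were Axl by DESeq2 (0.61) and limma-voom (0.61) and without sgTaz tumor 5 (0.66, adjusted p 0.0429, range 0.51 to 0.66 over tumors left out), and Ankrd1 by limma-voom (-0.66). Amotl2 turned to -0.056 without sgTaz tumor 1, with a range of -0.056 to 0.13. Wwtr1 passed the threshold by DESeq2 (-0.58) and limma-voom (-0.59). Small differences that turned were Rbms3 by limma-voom (-0.061), Nuak2 with the correction (0.083) and with the correction and block (0.064), Nuak2 over tumors left out (-0.14 to 0.024) and Tgfb2 over tumors left out (-0.24 to 0.032). The number of targets without overlap was 1 in every alternative that gives one. The causes were not tested.

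Samples with the same number did not deviate together (r over genes from -0.24 to 0.22 for the 5 pairs, and 1 of 5 sgCon tumors correlated best with its own number). These correlations cannot show whether the numbers mark a pairing by design, and the labels do not say so. The edgeR fit called 0 of the 10 targets, so that the replicate block could lose no call, and it added none. At an unadjusted p below 0.05 by edgeR there were 3 targets with the block and 5 without it. With 5 tumors per group, intervals of the target differences were wide beside their sizes, and counts of 122 or more per tumor leave counting error small.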

Other observations

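Other cells of the tumors were read from the remaining marker lists. Of 10 endothelial markers 7 had higher means in sgTaz tumors, with summed levels of 598 to 835 CPM in sgCon and 588 to 939 CPM in sgTaz tumors. Of 10 fibroblast markers 6 were higher and 4 lower, with sums of 1941 to 5314 and 1949 to 5249 CPM. Of 10 pericyte and smooth muscle markers 4 were higher and 6 lower, with sums of 355 to 602 and 337 to 622 CPM. By edgeR none of these 30 markers was called. At an unadjusted p below 0.05 by edgeR there were 1, 3 and 2, beside 21.8% of all genes. DESeq2 called 1, 2 and 1, beside 6.87% of the genes it tested. Limma-voom called 1 endothelial and 1 fibroblast marker as higher, beside 4.63% of all genes. It called 1 fibroblast marker and 2 pericyte and smooth muscle markers as lower, beside 5.8%.

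All 8 B cell markers, among them Cd79a and Ms4a1, had lower means in sgTaz tumors and were at an unadjusted p below 0.05, with a median log2 fold change of -3.11. Of all genes, 11.9% were lower at that line by edgeR. EdgeR and DESeq2 called 0 of the B cell markers, and limma-voom called 7 as lower, beside 5.8% of all genes. Their summed level was 67.7 to 838 CPM in sgCon and 8.01 to 181 CPM in sgTaz tumors, so that the groups overlapped. The 4 of 6 lymph node stroma markers that passed the filter were lower too, with a median of -2.21. EdgeR and DESeq2 called 0, and none was at an unadjusted p below 0.05 by edgeR. Limma-voom called 3 as lower, beside 5.8% of all genes.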
